A study of Mus musculus with 14 samples.

Results

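Mouse back skin taken 24 h after ultraviolet (UV) irradiation was compared with unirradiated skin (T0) by RNA sequencing. The comparison rests on 4 of the 14 libraries of the series, 2 at 24 h and 2 at T0, matched by library set, and covers all 10980 genes of the deposited table. All groups are wild type C57BL/6 mice whose back fur had been depilated, so the T0 skin was depilated as well. The 24 h group had received light from a mixed UV source, and the T0 group had received no treatment. Libraries at 12 h (2) and 6 h (3) after the same exposure served to place the 24 h values in time. Full thickness skin was used, which holds epidermis, hair follicles, sebaceous glands, dermis, fat and a thin muscle layer. Nothing in the labels states age, sex, UV dose, time of day or whether 1 mouse or several gave the libraries of a time point. The p-values therefore measure only the spread between these samples, and that spread may be technical.

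The epidermis renews itself from basal cells that carry keratins 5 and 14. Their daughters switch to keratins 1 and 10 as they move up, and at the surface they build a cornified envelope from loricrin, filaggrin-related and late cornified envelope (LCE) proteins. Injured epidermis is known to replace part of this programme with wound keratins (KRT6, KRT16), small proline-rich (SPRR) proteins, LCE3 proteins and antimicrobial alarm proteins such as S100A8 and S100A9. UV light damages DNA and is known to deplete Langerhans cells, the antigen-presenting cells of the epidermis that carry class II major histocompatibility complex (MHC) molecules.

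The libraries fall into sets that differ in number format and headers. The 24 h and T0 libraries of set 1 and those of set 2 were compared within their sets, and values are always given in the order set 1, set 2. Levels are FPKM (fragments counted per length of transcript and per total of mapped fragments), and differences are 24 h minus T0 on the log2(FPKM + 1) scale with their standard error (SE), which understates changes of genes with low values. A gene "rose" or "fell" if its Benjamini-Hochberg adjusted p from limma, over all genes, was under 0.05. Among these 4 libraries read numbers could be recovered from the values of set 2 only, at 12920836 reads for 24 h and 13069488 for T0. These are reads of the listed genes, and the whole depth is not known. Defining markers of the labelled tissue were present. Krt14 was at 1882 and 1046 FPKM at 24 h, against 1856 and 1226 FPKM at T0. Col1a1 of the dermis, Krt25 of the hair follicle, Adipoq of fat and Acta1 of skeletal muscle were also measured in all 4 libraries. As these are bulk samples, fewer cells of a type and less RNA per cell cannot be told apart.

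At 24 h the skin had higher levels of wound keratins, alarm proteins and the SPRR and LCE3 envelope genes, and lower levels of the regular cornified envelope genes, class II MHC genes and fibrillar collagens. Of 10980 genes, 36 rose (0.328%) and 205 fell (1.87%), 241 in all (2.19%). Counts of rises and falls in the lists below stand against these shares. By limma, 1334 of the 10980 genes had an unadjusted p under 0.05, the share against which such counts in the lists below stand. The median difference over all genes was 0.02 (0.00 within set 1 and 0.02 within set 2). Both 24 h libraries lay above both T0 libraries in 1280 of 10980 genes, far more than the 36 that rose. Such an order is common, so by itself it is weak support. The opposite order was not counted over all genes. All 241 called genes differed in the same direction in both sets, against 61.6% of all genes. The tested difference is the mean of the 2 within-set differences, so a call all but requires this. It is no separate support for the calls. Without the library set in the model, limma called 0 genes, and 352 had an unadjusted p under 0.05. With 1 of these 4 libraries left out at a time, the count of rises was 73 without 24 h of set 1, 15 without 24 h of set 2, 15 without T0 of set 1 and 14 without T0 of set 2, and that of falls was 173, 39, 67 and 48 in the same order. In all 4 of these fits 28 genes kept their call. The 10 rises among them were Krt6b, Saa3, S100a9, Lce3c, Sprr2f, S100a8, Slpi, Krt6a, Klk6 and Nppb. The 18 falls among them included Cd74, H2-Aa, H2-Ab1, H2-Eb1, Ccl27a and Krt79. For these 28 genes no single 24 h or T0 library decided the call. Without the 6 h library of set 3, which enters the fit for its estimate of spread, 78 genes rose and 305 fell. Without that of set 1, 41 rose and 215 fell, and without that of set 2, 27 rose and 150 fell.

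**Figure D1:**
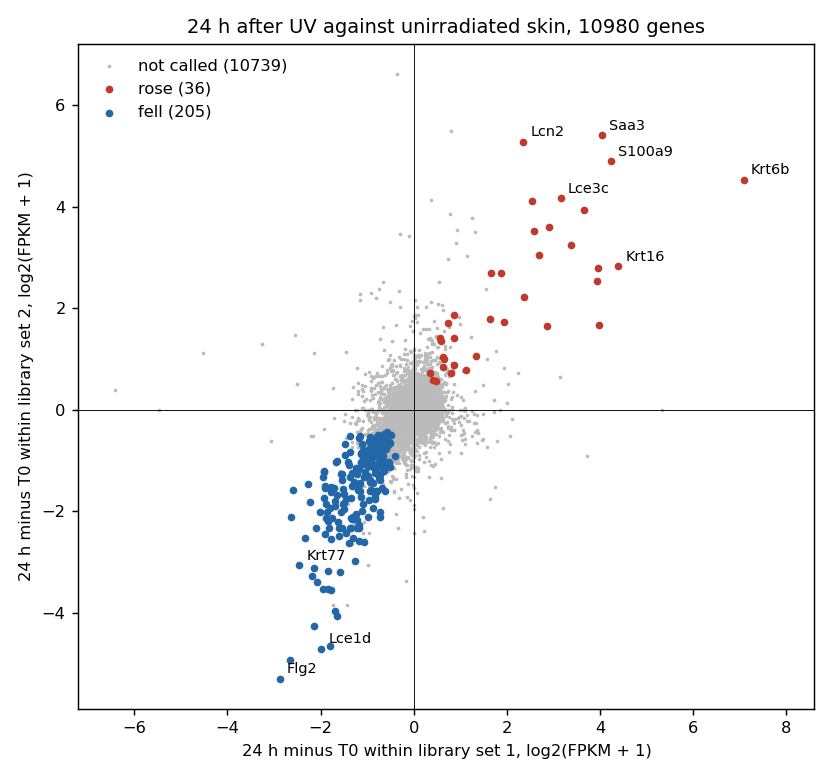
Difference between 24 h and T0 on the log2(FPKM + 1) scale within library set 1 (x axis) and within set 2 (y axis), 1 point per gene, with the 36 rises in red, the 205 falls in blue and the other 10739 genes in grey. All coloured points lie in the upper right or lower left, which a call all but requires, and Krt6b lies farthest to the right.

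Several wound keratin and alarm protein genes rose. Of 19 listed, 8 rose, 0 fell and 11 did not pass, with a median difference of 1.48, against 0.02 over all genes. Krt6b, an inducible keratin of wounded epidermis, was at 276 and 23.6 FPKM at 24 h, against 1.04 and 0.0658 FPKM at T0, a difference of 5.80 ± 0.62 (limma adjusted p = 0.00172). Both 24 h libraries lay above both T0 libraries, but set 1 was far above set 2, and in set 2 there were 706 reads at 24 h, against 2 at T0. Krt6a, its near-identical paralogue, was at 657 and 452 FPKM at 24 h, against 170 and 136 FPKM at T0 (1.83 ± 0.20, limma adjusted p = 0.00172). A read can match both copies, so the split between Krt6a and Krt6b is uncertain. Krt16, which pairs with keratin 6, was at 585 and 167 FPKM at 24 h, against 27.1 and 22.8 FPKM at T0 (3.60 ± 0.65, limma adjusted p = 0.0197). It lost its call whichever of the 4 libraries was left out, at 3.06 to 4.14. Krt17, another stress keratin that also marks hair follicles, was at 2259 and 1585 FPKM at 24 h, against 1496 and 1334 FPKM at T0, and did not pass (0.42 ± 0.16, limma adjusted p = 0.312). Without 24 h of set 1, 24 h of set 2, T0 of set 1 and T0 of set 2, the list had 6, 8, 6 and 5 rises, and 1 fall without 24 h of set 1.

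Alarm and antimicrobial genes stood beside the keratins. S100a9, a subunit of the calcium-binding alarm protein calprotectin, was at 153 and 117 FPKM at 24 h, against 7.17 and 2.95 FPKM at T0 (4.57 ± 0.44, limma adjusted p = 0.000893). S100a8, the other subunit, was at 212 and 81.9 FPKM at 24 h, against 27.4 and 5.82 FPKM at T0 (3.25 ± 0.23, limma adjusted p = 0.000172). For both genes the lower 24 h library was well above the higher T0 library. Saa3, an acute phase serum amyloid A protein, was at 23.0 and 59.0 FPKM at 24 h, against 0.463 and 0.416 FPKM at T0 (4.72 ± 0.52, limma adjusted p = 0.00172). Lcn2, which encodes lipocalin 2, a binder of bacterial iron carriers, was at 25.5 and 94.7 FPKM at 24 h, against 4.19 and 1.47 FPKM at T0 (3.81 ± 0.59, limma adjusted p = 0.00915). Set 2 had the higher 24 h level for both, and Lcn2 was not called without 24 h of set 2 (2.73) or without T0 of set 2 (3.09). Slpi, a secreted protease inhibitor, was at 15.5 and 15.2 FPKM at 24 h, against 1.75 and 0.420 FPKM at T0 (3.05 ± 0.29, limma adjusted p = 0.000893). Its 24 h levels were nearly equal in the 2 sets. Klk6, a kallikrein-related protease, was at 164 and 118 FPKM at 24 h, against 52.2 and 33.5 FPKM at T0 (1.71 ± 0.19, limma adjusted p = 0.00172). Nppb, which encodes B-type natriuretic peptide, was at 8.61 and 5.45 FPKM at 24 h, against 2.03 FPKM and a listed 0 at T0 (2.18 ± 0.28, limma adjusted p = 0.00495). BC100530, a stefin family gene with near-identical copies, was at 714 and 28.8 FPKM at 24 h, against 98.0 and 8.51 FPKM at T0 (2.25 ± 0.46, limma adjusted p = 0.0328). Among the 4 fits without a 24 h or T0 library it was called only without 24 h of set 2. S100a8 and S100a9 are also abundant in neutrophils, and of 15 listed neutrophil genes 3 were in the table. The third, Il1r2, a decoy receptor for interleukin 1, fell, at 7.70 and 12.6 FPKM at 24 h, against 31.9 and 30.7 FPKM at T0 (-1.57 ± 0.23, limma adjusted p = 0.00749). The part of neutrophils in the S100a8 and S100a9 rise was not tested, and the other 12 genes of that list were not analysed here.

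Promoters of 4 of these rises are shown because they hold the same short motif. The sequences are the 250 bases before the gene start, from RefSeq on build GRCm38.p6, written 5′ to 3′ on the gene's strand, and the capitals mark TTGCNNAA on either strand, the letters searched for the C/EBP family of transcription factors. Saa3 is at chr7:46715677-46715926, minus strand, Lcn2 at chr2:32387740-32387989, minus strand, S100a9 at chr3:90695722-90695971, minus strand and Slpi at chr2:164356508-164356757, minus strand.
Saa3: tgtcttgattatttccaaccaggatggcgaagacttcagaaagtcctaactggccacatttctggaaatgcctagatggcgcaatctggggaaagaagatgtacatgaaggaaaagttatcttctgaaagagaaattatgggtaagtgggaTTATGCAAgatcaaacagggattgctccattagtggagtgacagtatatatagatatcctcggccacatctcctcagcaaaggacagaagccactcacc
Lcn2: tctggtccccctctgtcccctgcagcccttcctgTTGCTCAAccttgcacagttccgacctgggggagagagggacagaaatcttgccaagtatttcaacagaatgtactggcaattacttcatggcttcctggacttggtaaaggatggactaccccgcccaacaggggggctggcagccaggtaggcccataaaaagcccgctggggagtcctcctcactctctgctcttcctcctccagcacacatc
S100a9: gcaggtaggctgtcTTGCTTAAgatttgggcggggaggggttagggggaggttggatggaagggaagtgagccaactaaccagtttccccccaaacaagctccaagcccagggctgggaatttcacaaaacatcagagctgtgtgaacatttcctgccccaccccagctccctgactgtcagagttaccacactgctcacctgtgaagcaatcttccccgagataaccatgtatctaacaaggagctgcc
Slpi: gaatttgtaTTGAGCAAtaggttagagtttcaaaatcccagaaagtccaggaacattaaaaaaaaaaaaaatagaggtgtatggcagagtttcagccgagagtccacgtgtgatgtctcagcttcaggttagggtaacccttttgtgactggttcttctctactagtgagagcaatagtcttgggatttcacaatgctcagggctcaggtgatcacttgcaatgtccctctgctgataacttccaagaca
The match begins 99 bases before the start in Saa3, 216 in Lcn2, 236 in S100a9 and 241 in Slpi. The motif was not limited to rises. Krt77, a keratin gene that fell, held a match 129 bases before its start (sequence not shown). Among all 32851 promoter windows, 9.56% held this motif, as did 7.83% of the 10740 windows of genes in the expression table. It was in 25.8% of 31 windows of 27 genes that rose and in 12.5% of 200 windows of 157 genes that fell. AP-1 letters (TGANTCA, either strand) were in 19.4% of the windows of rises and 9.0% of those of falls, against 6.75% of all windows and 4.81% of those of genes in the expression table. A match describes the letters in the window and is no evidence of binding.

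The cornified envelope showed a divided pattern. Of 29 listed genes of the regular cornified envelope and barrier, 16 fell and 0 rose, with a median difference of -2.01 (-1.30 within set 1 and -2.52 within set 2). Of 12 listed injury-induced envelope genes, 9 rose and 0 fell, with a median of 3.05 (3.27 and 2.66). The medians of both lists had the same sign in both sets, and that of the regular envelope was lower in set 2. Many of these genes lie together in the epidermal differentiation complex on chromosome 3. In its stretch from S100a4 to S100a10 (chr3:90603770-93564645, RefSeq GRCm38.p6), 27 of 48 listed genes changed (56.25%), 12 up and 15 down. On the whole of chromosome 3, 36 of 540 listed genes changed (6.67%), against 2.19% of all genes. This stretch and the families below were grouped after their values were seen. LCE and SPRR genes are families of near-identical copies, so the values of single members are uncertain.

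Among structural proteins of the regular envelope, Flg2, which encodes filaggrin 2, was at 20.9 and 2.01 FPKM at 24 h, against 160 and 117 FPKM at T0 (-4.08 ± 0.71, limma adjusted p = 0.016). Lor, the gene of loricrin, the main envelope protein, was at 195 and 19.8 FPKM at 24 h, against 869 and 179 FPKM at T0 (-2.63 ± 0.38, limma adjusted p = 0.00742). Within each set the 24 h level was the lower one, but for Lor the 24 h library of set 1 lay above the T0 library of set 2, so the groups overlap across sets. Casp14, a protease that processes filaggrin, was at 61.2 and 20.8 FPKM at 24 h, against 263 and 229 FPKM at T0 (-2.74 ± 0.42, limma adjusted p = 0.00885). Kprp, a keratinocyte proline-rich protein, fell by 2.08 ± 0.34 (limma adjusted p = 0.012), and Klk5, a protease of the surface layer, fell by 1.002 ± 0.18 (limma adjusted p = 0.0211). Hal, which encodes histidase, the enzyme that makes the UV-absorbing urocanic acid of the outer epidermis, was among the 15 largest falls although on no list, at 36.3 and 8.31 FPKM at 24 h, against 133 and 83.1 FPKM at T0 (-2.51 ± 0.44, limma adjusted p = 0.0176). Other envelope genes did not pass. Ivl, which encodes involucrin, was at 177 and 93.8 FPKM at 24 h, against 117 and 100.9 FPKM at T0 (0.25 ± 0.34). Tgm1, the envelope cross-linking transglutaminase, had a difference of 0.07 ± 0.18. Hrnr, which encodes hornerin, was at 19.8 and 2.26 FPKM at 24 h, against 40.5 and 26.1 FPKM at T0 (-2.02 ± 0.56, limma adjusted p = 0.117). Hal was called only without 24 h of set 1 (-3.38) among the 4 fits without a 24 h or T0 library. Flg2 was not called without 24 h of set 2 (-2.67), T0 of set 1 (-4.16) or T0 of set 2 (-4.01), and Lor and Casp14 were not called without either T0 library (-2.45 and -2.81 for Lor, -2.66 and -2.83 for Casp14).

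Of 14 listed Lce1 genes, 11 fell and 0 rose, with a median of -2.71. Lce1m was at 61.5 and 3.74 FPKM at 24 h, against 394 and 142 FPKM at T0 (-3.79 ± 0.60, limma adjusted p = 0.0105). Lce1d was at 31.3 and 0.881 FPKM at 24 h, against 127 and 48.1 FPKM at T0 (-3.34 ± 0.56, limma adjusted p = 0.0134). In Lce1d the 24 h library of set 2 held 8 reads, against 443 at T0, and all 4 values are apart between the groups. The 3 that did not pass, Lce1e, Lce1g and Lce1h, lie in the same run of genes. All 3 listed Lce3 genes, by contrast, rose. Lce3c was at 55.6 and 33.3 FPKM at 24 h, against 5.35 and 0.913 FPKM at T0 (3.66 ± 0.28, limma adjusted p = 0.000178). Lce3d was at 43.2 and 34.5 FPKM at 24 h, against 6.65 and 1.05 FPKM at T0 (3.32 ± 0.57, limma adjusted p = 0.0159), and was called only without 24 h of set 1 (3.87) among the 4 fits without a 24 h or T0 library. Lce3b rose by 3.31 ± 0.49 (limma adjusted p = 0.00749), with 32 reads at 24 h and 0 at T0 in set 2. Of 7 listed Sprr2 genes, 5 rose (Sprr2d, Sprr2e, Sprr2f, Sprr2g and Sprr2i), and Sprr2a3 and Sprr2h did not pass. Sprr2f was at 19.1 and 5.88 FPKM at 24 h, against 0.298 FPKM and a listed 0 at T0 (3.37 ± 0.43, limma adjusted p = 0.00465). Sprr1b was at 315 and 75.1 FPKM at 24 h, against 60.04 and 15.3 FPKM at T0 (2.30 ± 0.47, limma adjusted p = 0.0305), and was not called in any of the 4 fits that left out a 24 h or T0 library (2.101 to 2.50). Its neighbour Sprr1a, the most abundant of these genes, was at 3604 and 2333 FPKM at 24 h, against 3652 and 1895 FPKM at T0, and did not pass (0.14 ± 0.23). Without 24 h of set 1, 24 h of set 2, T0 of set 1 and T0 of set 2, the regular envelope list had 19, 10, 1 and 1 falls, and the injury-induced list 7, 4, 3 and 4 rises.

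**Figure D2:**
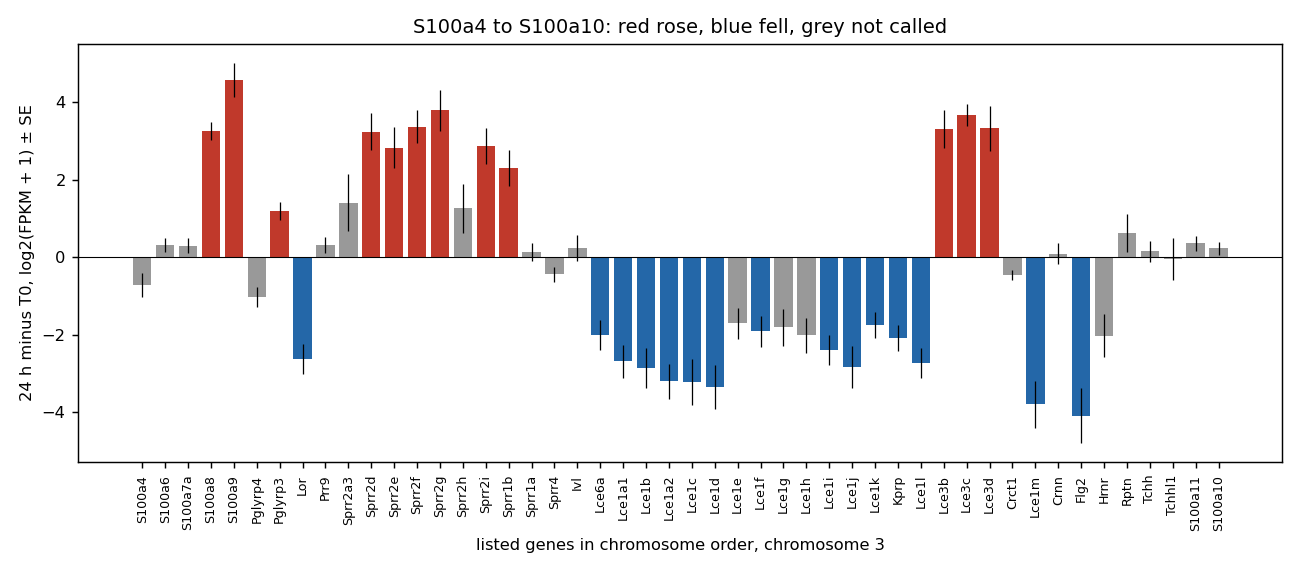
Difference between 24 h and T0 (bars, log2(FPKM + 1) ± SE from limma) for the 48 listed genes from S100a4 to S100a10 in chromosome order along the x axis, with rises in red, falls in blue and genes without a call in grey. S100a8 and S100a9, a run of Sprr genes and the 3 Lce3 genes stand above 0, and the Lce1 genes on both sides of Lce3 stand below it.

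Lce3c and Lce1d, both in this complex, with differences of 3.66 and -3.34, are shown side by side. Lce3c is at chr3:92944236-92944485, plus strand, and Lce1d at chr3:92687211-92687460, minus strand (250 bases before the start, RefSeq GRCm38.p6, 5′ to 3′).
Lce3c: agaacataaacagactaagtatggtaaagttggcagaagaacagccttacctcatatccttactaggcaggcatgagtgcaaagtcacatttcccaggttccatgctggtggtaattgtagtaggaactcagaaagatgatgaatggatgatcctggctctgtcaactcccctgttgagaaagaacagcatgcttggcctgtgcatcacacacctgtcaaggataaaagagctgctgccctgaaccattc
Lce1d: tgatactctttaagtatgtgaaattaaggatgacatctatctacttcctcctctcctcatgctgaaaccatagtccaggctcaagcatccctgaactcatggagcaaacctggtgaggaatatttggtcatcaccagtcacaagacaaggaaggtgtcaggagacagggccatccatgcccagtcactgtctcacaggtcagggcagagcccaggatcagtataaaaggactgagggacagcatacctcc
Neither window held the letters searched for C/EBP, AP-1, the Y box (CTGATTGG) or NF-kB on either strand, so no base is in capitals. This says only that those letters are not in these 250 bases.

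Spinous and basal layer genes included both falls and genes that did not pass. Of 16 listed desmosome and spinous layer genes, 2 fell and 0 rose, with 1.87% of all genes falling. Krt77, a type II keratin, was at 290 and 102 FPKM at 24 h, against 1602 and 857 FPKM at T0 (-2.76 ± 0.39, limma adjusted p = 0.00742). Krt10, the main spinous keratin, was at 922 and 339 FPKM at 24 h, against 2589 and 1208 FPKM at T0 (-1.66 ± 0.33, limma adjusted p = 0.0292). Both 24 h libraries lay below both T0 libraries in each gene. Its partner Krt1, at 793 and 100.7 FPKM at 24 h and 834 and 347 FPKM at T0, did not pass (-0.92 ± 0.50). Krt77 was not called without 24 h of set 2 (-2.15) or T0 of set 1 (-2.52), and Krt10, among the same 4 fits, was called only without 24 h of set 1 (-2.07). Of 16 basal keratinocyte and hemidesmosome genes, 5 fell, 0 rose and 11 did not pass, with a median of -0.32. Col17a1, a collagen that anchors basal cells, was at 71.9 and 45.1 FPKM at 24 h, against 164 and 127 FPKM at T0 (-1.33 ± 0.17, limma adjusted p = 0.00495). Col7a1, the anchoring fibril collagen, fell by 0.91 ± 0.14 (limma adjusted p = 0.00848), Lamb3, a laminin chain of the basement membrane, fell by 0.94 ± 0.15 (limma adjusted p = 0.0104), and Krt15, a keratin of basal and follicle stem cells, fell by 1.005 ± 0.17 (limma adjusted p = 0.016). Sostdc1, a secreted inhibitor of Wnt and BMP signals, fell by 0.93 ± 0.18 (limma adjusted p = 0.0262). Krt5 and Krt14 did not pass, at -0.31 ± 0.16 and -0.10 ± 0.18. The basal list had 5, 0, 2 and 2 falls without 24 h of set 1, 24 h of set 2, T0 of set 1 and T0 of set 2.

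**Figure D3:**
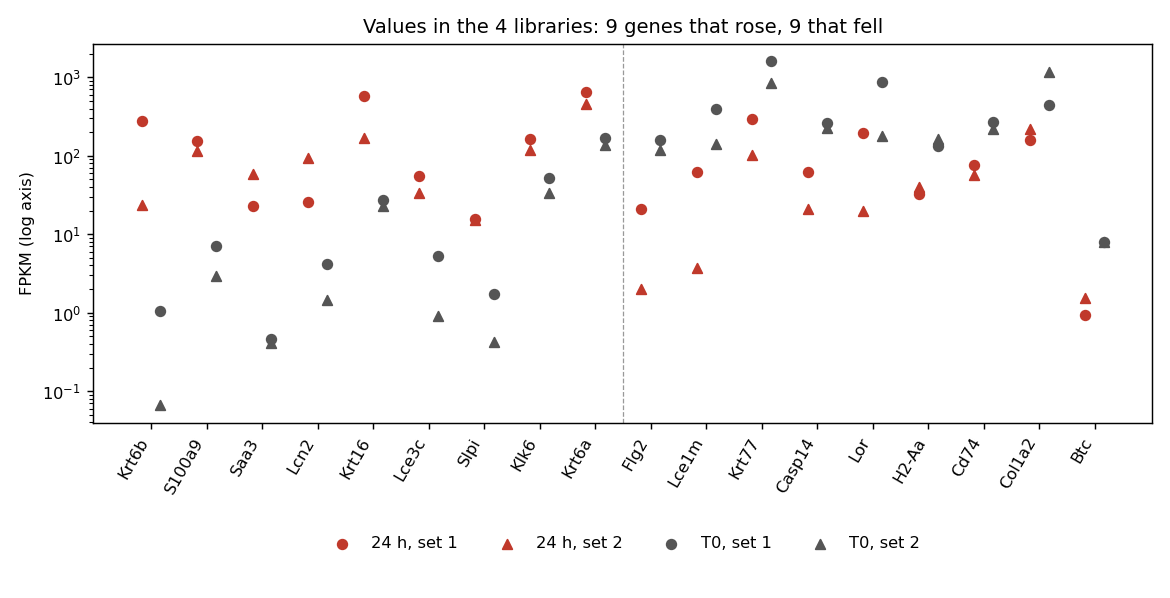
FPKM in each of the 4 libraries (log axis) for 9 genes that rose, left of the dashed line, and 9 that fell, right of it, with 24 h in red left of T0 in grey, circles for set 1 and triangles for set 2. At 24 h the 2 libraries are close for Slpi, H2-Aa and Cd74 and far apart for Krt6b, Lor and Lce1m. The T0 libraries of Slpi are apart.

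Class II antigen presentation fell as a group. Of 10 listed class II and dendritic cell genes, 9 fell and 0 rose, with a median of -1.77. H2-Aa, which encodes a class II alpha chain, was at 32.2 and 39.7 FPKM at 24 h, against 133 and 164 FPKM at T0 (-2.02 ± 0.13, limma adjusted p = 0.000172). Its partner H2-Ab1 was at 35.4 and 37.7 FPKM at 24 h, against 117 and 143 FPKM at T0 (-1.80 ± 0.14, limma adjusted p = 0.000178). H2-Eb1, another beta chain, was at 12.3 and 17.2 FPKM at 24 h, against 46.7 and 81.6 FPKM at T0 (-2.01 ± 0.15, limma adjusted p = 0.000172). In all 3 genes both 24 h libraries lay below both T0 libraries. Cd74, the invariant chain that escorts class II molecules, was at 75.7 and 57.1 FPKM at 24 h, against 267 and 222 FPKM at T0 (-1.87 ± 0.14, limma adjusted p = 0.000172). H2-DMa and H2-DMb1, which load peptides, fell by 1.25 ± 0.18 (limma adjusted p = 0.00736) and by 1.04 ± 0.16 (limma adjusted p = 0.00891). The dendritic cell lectin genes were low in level. Cd207, which encodes langerin of Langerhans cells, was at 2.06 and 0.585 FPKM at 24 h, against 4.02 and 5.39 FPKM at T0 (-1.36 ± 0.27, limma adjusted p = 0.0265). Mgl2 was at 3.57 and 3.37 FPKM at 24 h, against 8.66 and 25.5 FPKM at T0 (-1.84 ± 0.28, limma adjusted p = 0.0084), and Cd209a fell by 1.73 ± 0.26 (limma adjusted p = 0.00848). All 3 lectin genes lost their call without 24 h of set 2 or without T0 of set 2. Epcam, which keratinocytes of the follicle also express, was the 1 gene of the list without a call (-0.17 ± 0.12). The list had 8, 4, 9 and 4 falls without 24 h of set 1, 24 h of set 2, T0 of set 1 and T0 of set 2.

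Promoters of H2-Aa and H2-Eb1 are shown for a motif that class II genes are known to share, the Y box (CTGATTGG, searched on both strands), in capitals. H2-Aa is at chr17:34287824-34288073, minus strand, and H2-Eb1 at chr17:34305617-34305866, plus strand (250 bases before the start, RefSeq GRCm38.p6, 5′ to 3′). The run of capitals nearer the left end of H2-Aa is an NF-kB match.
H2-Aa: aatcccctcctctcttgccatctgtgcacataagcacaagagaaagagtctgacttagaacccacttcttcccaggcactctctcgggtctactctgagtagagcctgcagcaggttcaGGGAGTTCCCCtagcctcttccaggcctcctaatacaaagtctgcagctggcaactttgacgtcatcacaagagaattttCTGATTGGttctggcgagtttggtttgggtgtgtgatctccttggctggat
H2-Eb1: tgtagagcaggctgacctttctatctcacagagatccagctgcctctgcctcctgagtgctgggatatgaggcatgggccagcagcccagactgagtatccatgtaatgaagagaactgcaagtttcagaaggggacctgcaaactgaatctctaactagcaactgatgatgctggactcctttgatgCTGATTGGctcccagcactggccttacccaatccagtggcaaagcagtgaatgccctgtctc
The Y box match begins 51 bases before the start in H2-Aa and 62 in H2-Eb1. The NF-kB letters of H2-Aa match at 131 and, overlapping it, at 130 bases before the start. Of all 32851 windows, 3.83% held a Y box and 3.90% an NF-kB match, and of the 10740 windows of genes with an FPKM value 4.94% and 4.50%. Among windows of genes that fell the shares were 4.5% and 7.0%, and among those of genes that rose 0% and 9.68%.

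Other immune genes gave few calls. Of 19 listed monocyte and macrophage genes, 1 fell and 0 rose. It was Csf1r, the receptor for colony stimulating factor 1, at 3.45 and 7.59 FPKM at 24 h, against 8.69 and 16.4 FPKM at T0 (-1.07 ± 0.21, limma adjusted p = 0.0277), which was called only without 24 h of set 2 (-1.38) among the 4 fits without a 24 h or T0 library. The macrophage list summed to 379 and 619 FPKM at 24 h, against 443 and 554 FPKM at T0. Of 8 lymphoid and mast cell genes, 2 fell. Cd3g, a chain of the T cell receptor complex, was at 2.64 and 0.146 FPKM at 24 h, against 7.79 and 7.99 FPKM at T0 (-2.12 ± 0.38, limma adjusted p = 0.019), with 2 reads at 24 h and 111 at T0 in set 2. Nkg7, a granule protein of cytotoxic cells, fell by 1.63 ± 0.26 (limma adjusted p = 0.0101), with 4 and 33 reads in set 2. Both were called only without 24 h of set 1 among the 4 fits that left out a 24 h or T0 library, at -2.95 for Cd3g. The list median was 0.10 within set 1 and -0.67 within set 2. Of 6 listed Skint genes, a family whose member Skint1 is needed in mice for the gamma delta T cells of the epidermis, 4 fell (Skint1, Skint9, Skint10 and Skint11) and 2 did not pass, a family grouped after its values were seen. Skint10 was at 3.39 and 3.11 FPKM at 24 h, against 17.9 and 19.5 FPKM at T0 (-2.21 ± 0.27, limma adjusted p = 0.00319).

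Of 21 listed cytokine and chemokine genes, 2 fell and 0 rose, Ccl27a and Il1r2. By limma, 12 of the 21 had an unadjusted p under 0.05. Ccl27a, a keratinocyte chemokine that attracts skin-homing T cells, was at 72.5 and 4.17 FPKM at 24 h, against 207 and 19.1 FPKM at T0 (-1.73 ± 0.16, limma adjusted p = 0.000893). It was lower at 24 h in each set, while its level was far higher in set 1 than in set 2. Inflammatory cytokines gave uneven values. Il1b, which encodes interleukin 1 beta, was at 1.99 and 31.1 FPKM at 24 h, against 1.32 and 0.832 FPKM at T0 (2.25 ± 0.88, limma adjusted p = 0.325). Cxcl1, a neutrophil attractant, was at 1.28 and 12.5 FPKM at 24 h, against 0.216 and 0.388 FPKM at T0 (2.09 ± 0.69, limma adjusted p = 0.201). Ccl2, a monocyte attractant, was at 2.46 and 21.6 FPKM at 24 h, against 2.70 and 1.10 FPKM at T0 (1.67 ± 0.72, limma adjusted p = 0.389). High values of these 3 genes came from the 24 h library of set 2 alone. Without 24 h of set 1, 3 genes of the list rose. Of 15 interferon response genes 1 rose, Isg15, a ubiquitin-like protein, at 21.3 and 18.3 FPKM at 24 h, against 12.3 and 4.87 FPKM at T0 (1.23 ± 0.21, limma adjusted p = 0.0159). It was not called without 24 h of set 2 (0.92) or T0 of set 2 (0.94). Of 13 NF-kB pathway genes limma called 0, with 2 at an unadjusted p under 0.05, and Nfkbia, the inhibitor that NF-kB induces, was at -0.41 ± 0.27.

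**Figure D4:**
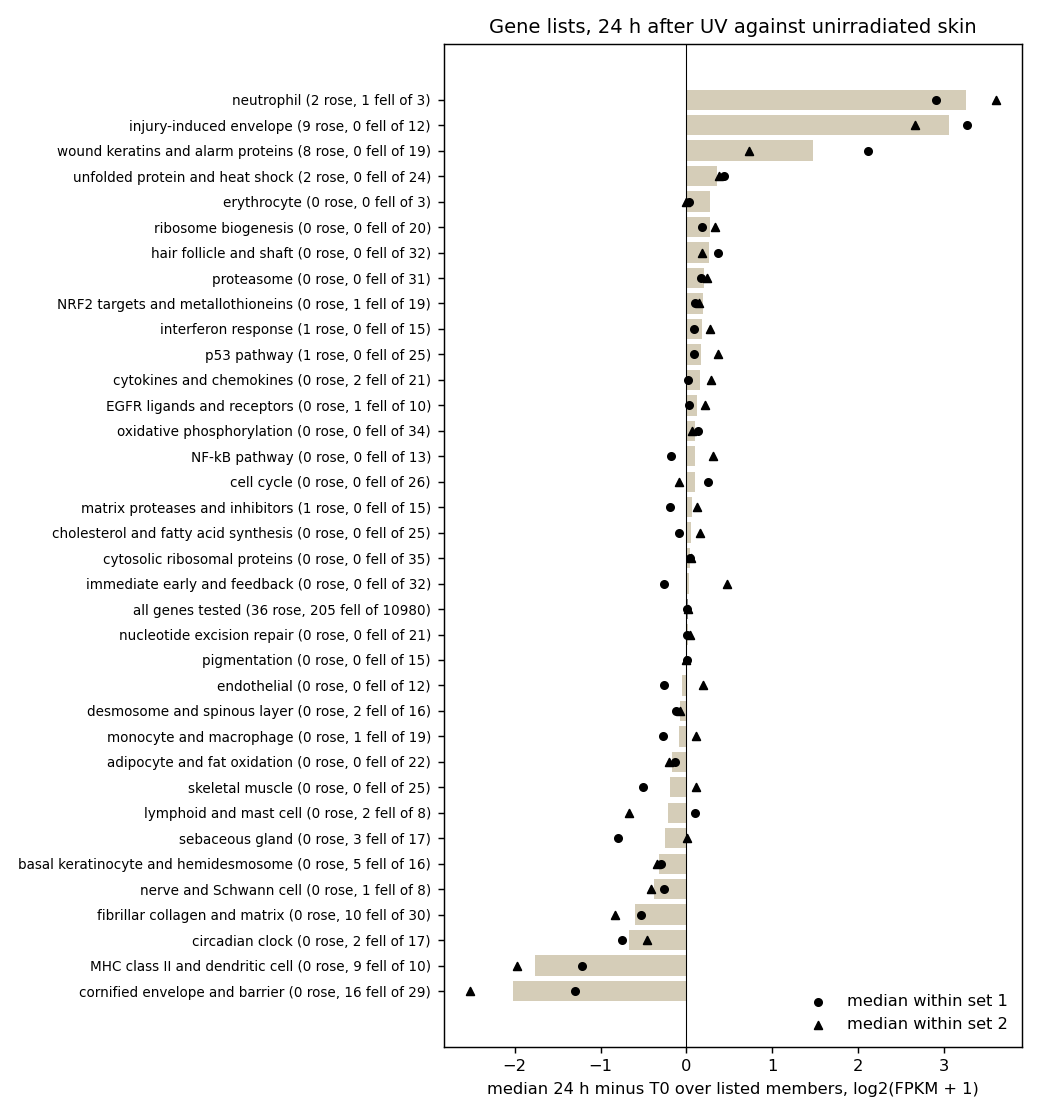
Median difference between 24 h and T0 (bars, log2(FPKM + 1) scale) over the listed members of each gene list and over all genes, with the median within set 1 as circles and within set 2 as triangles, and the numbers of rises and falls beside each name. The regular envelope and class II lists have the lowest medians, and the 2 injury lists and the 3 neutrophil list genes the highest.

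Dermal matrix genes were lower at 24 h. Of 30 listed fibrillar collagen and matrix genes, 10 fell and 0 rose, with a median of -0.60. Col1a2, a chain of type I collagen, was at 159 and 218 FPKM at 24 h, against 438 and 1174 FPKM at T0 (-1.94 ± 0.29, limma adjusted p = 0.00848). Col1a1, the other chain, was at 258 and 260 FPKM at 24 h, against 585 and 1253 FPKM at T0 (-1.72 ± 0.32, limma adjusted p = 0.0235). Col3a1, of type III collagen, was at 162 and 229 FPKM at 24 h, against 319 and 998 FPKM at T0 (-1.55 ± 0.31, limma adjusted p = 0.0292). The groups do not overlap in any of the 3, and T0 of set 2 stood high above the rest. Summed over the list, FPKM came to 1440 and 2126 at 24 h, against 2612 and 6119 at T0. Tnxb, which encodes the matrix protein tenascin XB, fell by 1.24 ± 0.19 (limma adjusted p = 0.00891), and Sparc, a collagen-binding protein, fell by 1.27 ± 0.25 (limma adjusted p = 0.0286). Lum, Fmod and Ogn, small leucine-rich proteoglycans that bind collagen, had differences of -0.99 ± 0.18, -0.91 ± 0.18 and -1.43 ± 0.27 (limma adjusted p of 0.0226, 0.0269 and 0.0246). Col5a1, of type V collagen, was at -1.05 ± 0.23 and Loxl2, a collagen cross-linker, at -0.89 ± 0.19 (limma adjusted p of 0.0449 and 0.0425). The list had 2 falls without 24 h of set 1, 1 without 24 h of set 2, 11 without T0 of set 1 and 0 without T0 of set 2 (median -0.39), and Col1a2 lost its call without 24 h of set 2 (-1.82) and without T0 of set 2 (-1.46). Of 15 matrix proteases and inhibitors 1 rose, Timp1, an inhibitor of matrix metalloproteinases, at 10.99 and 37.0 FPKM at 24 h, against 2.26 and 4.88 FPKM at T0 (2.29 ± 0.35, limma adjusted p = 0.00885). It was called only without 24 h of set 1 (2.95) among the 4 fits without a 24 h or T0 library.

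Sebaceous gland and nerve genes included single falls. Of 17 sebaceous gland genes 3 fell, with 1.87% of all genes falling. Scd3, a fatty acid desaturase of the gland, was at 8.39 and 6.13 FPKM at 24 h, against 27.6 and 39.1 FPKM at T0 (-2.05 ± 0.32, limma adjusted p = 0.00891). Krt79, a keratin of the gland duct, was at 165 and 164 FPKM at 24 h, against 523 and 336 FPKM at T0 (-1.35 ± 0.19, limma adjusted p = 0.00615). Acsbg1, an acyl-CoA synthetase, fell by 1.55 ± 0.23 (limma adjusted p = 0.0084). The other 14 did not pass, and the list median was -0.80 within set 1 and 0.01 within set 2. Without 24 h of set 1, 24 h of set 2, T0 of set 1 and T0 of set 2 the sebaceous list had 3, 1, 2 and 2 falls. Of 8 nerve and Schwann cell genes, 1 fell, the myelin gene Mbp (-0.91 ± 0.19, limma adjusted p = 0.0319), which lost its call in each of the 4 fits that left out a 24 h or T0 library (-0.95 to -0.86). Of 25 skeletal muscle genes limma called 0 (3 at an unadjusted p under 0.05), and the list summed to 5015 and 4496 FPKM at 24 h, against 6764 and 4274 FPKM at T0. With the level of this list as a covariate, limma called 25 rises and 172 falls. Adipocyte (22 genes), hair follicle (32), pigmentation (15), endothelial (12) and erythrocyte (3) lists had 0 calls each by limma, with 2, 1, 0, 2 and 0 genes at an unadjusted p under 0.05. All 32 hair follicle genes had a difference above 0, with a median of 0.27 (0.37 within set 1 and 0.18 within set 2). After quantile normalization 28 of them did, and Krt71 and Krt25 were at -0.16 and -0.23. Without 24 h of set 1 or of set 2, 31 and 32 were above 0 (medians 0.27 and 0.29). Without T0 of set 1 or of set 2, 24 and 29 were above 0 (medians 0.16 and 0.36).

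The DNA damage lists gave 1 call. Of 25 listed p53 pathway genes, 1 rose and 0 fell, Tnfrsf10b, a death receptor for TRAIL, at 4.84 and 8.17 FPKM at 24 h, against 2.95 and 2.45 FPKM at T0 (0.99 ± 0.21, limma adjusted p = 0.0401). It was called only without 24 h of set 1 (1.36) among the 4 fits without a 24 h or T0 library. Cdkn1a, which encodes the cell cycle inhibitor p21, was at 259 and 298 FPKM at 24 h, against 205 and 169 FPKM at T0, and did not pass (0.58 ± 0.19, limma adjusted p = 0.199). Its 24 h libraries were both above its T0 libraries. Of the 25 p53 pathway genes, 9 had an unadjusted p under 0.05 by limma, against 1334 of all 10980 genes. Differences were above 0 in 18 of the 25 and in 5850 of all genes. Without the 6 h library of set 3, 3 genes of this list rose, and 1 rose without that of set 1 or that of set 2. Among 21 nucleotide excision repair genes, which remove UV lesions from DNA, limma called 0, with 2 at an unadjusted p under 0.05 and a median of 0.01. Ddb1, a subunit of the lesion sensor, was at 119 and 113 FPKM at 24 h, against 122 and 110 FPKM at T0. Among 26 cell cycle genes limma called 0, with 0 at an unadjusted p under 0.05, and the list median was 0.25 within set 1 and -0.09 within set 2. Pcna, the replication clamp, was at 138 and 123 FPKM at 24 h, against 113 and 111 FPKM at T0 (0.22 ± 0.13). Of 32 immediate early and feedback genes limma called 0 (4 at an unadjusted p under 0.05), and their median was -0.26 within set 1 and 0.47 within set 2. Junb was at 167 and 118 FPKM at 24 h, against 192 and 58.8 FPKM at T0, so the sets point in opposite directions.

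Among the remaining lists, 2 of 24 unfolded protein and heat shock genes rose, and 15 had an unadjusted p under 0.05 by limma. Without 6 h of set 3, 8 of them rose, against 2 without 6 h of set 1 and 1 without 6 h of set 2. Creld2, a chaperone of the endoplasmic reticulum, was at 30.9 and 30.5 FPKM at 24 h, against 19.6 and 16.6 FPKM at T0 (0.74 ± 0.16, limma adjusted p = 0.0374). Asns, asparagine synthetase, was at 28.5 and 27.8 FPKM at 24 h, against 20.1 and 18.4 FPKM at T0 (0.53 ± 0.10, limma adjusted p = 0.0202). The 24 h levels of the 2 sets were close in both, yet neither gene kept its call in any of the 4 fits that left out a 24 h or T0 library (0.63 to 0.84 for Creld2 and 0.47 to 0.59 for Asns). Of 17 circadian clock genes 2 fell, with a list median of -0.66, and 12 had an unadjusted p under 0.05 by limma. Per3 was at 4.50 and 3.47 FPKM at 24 h, against 9.10 and 8.31 FPKM at T0 (-0.97 ± 0.18, limma adjusted p = 0.0236), and Nr1d2 fell by 0.79 ± 0.18 (limma adjusted p = 0.0499). The nominal times are a whole day apart, and a difference in the time of day of sampling cannot be told apart from these falls. Without 1 of the 24 h or T0 libraries the clock list had 0 to 2 falls, and it had 4 without 6 h of set 1 or 6 h of set 3. The clock list had 1 fall without 6 h of set 2. Of 10 EGFR ligand and receptor genes 1 fell, Btc, which encodes the ligand betacellulin, at 0.931 and 1.53 FPKM at 24 h, against 8.08 and 7.86 FPKM at T0 (-2.02 ± 0.28, limma adjusted p = 0.00696). It was not called without 24 h of set 2 (-2.02) or T0 of set 1 (-1.75). Epgn, the ligand epigen, was higher in both 24 h libraries, at 23.5 and 37.4 FPKM at 24 h, against 7.38 and 6.35 FPKM at T0, but did not pass (1.97 ± 0.49, limma adjusted p = 0.0797). Of 19 NRF2 target and metallothionein genes 1 fell, Gsta2, a glutathione transferase (-1.10 ± 0.23, limma adjusted p = 0.0337), which was called in none of the 4 fits that left out a 24 h or T0 library (-1.31 to -0.88). Ribosomal protein (35), ribosome biogenesis (20), proteasome (31), oxidative phosphorylation (34) and lipid synthesis (25) genes had 0 calls by limma. At an unadjusted p under 0.05 were 0, 6, 6, 0 and 1 of them, against 1334 of all 10980 genes. In other lists with 1 call, 5 of 10 EGFR, 8 of 15 matrix protease and 5 of 15 interferon genes had such a p. So did 6 of 19 macrophage, 4 of 8 nerve and 3 of 19 NRF2 genes. All 31 proteasome genes (28 after quantile normalization) and all 20 ribosome biogenesis genes (19 with the muscle covariate) had differences above 0, with medians of 0.21 and 0.27.

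To place 24 h in time, it was set against the 12 h and the 6 h libraries. Against 12 h, limma called 0 genes (0%), with 566 at an unadjusted p under 0.05. It called 17 genes without 24 h of set 1 and 10 without 24 h of set 2. A p that misses the threshold does not show equal levels. Against 6 h, 342 genes changed (3.11%), of which 210 were higher at 24 h (1.91%) and 132 lower (1.2%). The split turned with the scaling, to 115 higher and 157 lower under median-of-ratios scaling and 180 and 190 under quantile normalization. The count fell to 2 with the skeletal muscle covariate, to 15 without 6 h of set 2 and to 16 without 24 h of set 2. It was 611 without 6 h of set 3, 179 without 24 h of set 1 and 0 without the library set in the model, where 545 genes had an unadjusted p under 0.05. The muscle list had a median of -0.79 at 24 h minus 6 h. The comparisons with T0, 12 h and 6 h share the 24 h libraries.

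Krt6b and Saa3 were higher at 24 h than at 6 h by 3.40 and 3.93 (limma adjusted p of 0.0225 and 0.00887). Krt6b was at 11.9 and 2.03 FPKM at 6 h, 79.9 and 11.5 FPKM at 12 h and 276 and 23.6 FPKM at 24 h in sets 1 and 2. Saa3 was at 0.479 and 2.51 FPKM at 6 h, 7.32 and 25.2 FPKM at 12 h and 23.0 and 59.0 FPKM at 24 h. Both sets placed the highest level of both genes at 24 h. Lce3c was at 35.0 and 15.9 FPKM at 6 h, 97.9 and 43.1 FPKM at 12 h and 55.6 and 33.3 FPKM at 24 h, highest at 12 h in both sets, though neither its 12 h nor its 6 h difference from 24 h passed (-0.58 for 24 h minus 12 h and 0.64 ± 0.27 for 24 h minus 6 h). H2-Aa was at 69.7 and 91.5 FPKM at 6 h, 31.4 and 51.3 FPKM at 12 h and 32.2 and 39.7 FPKM at 24 h. Krt77 was at 648 and 608 FPKM at 6 h, 253 and 288 FPKM at 12 h and 290 and 102 FPKM at 24 h. In the third 6 h library, of set 3, H2-Aa was at 211 and Krt77 at 1014 FPKM. The 24 h minus 6 h differences were -1.10 ± 0.12 for H2-Aa and -2.07 ± 0.37 for Krt77 (limma adjusted p of 0.00466 and 0.0246). Col1a2 was at 218 and 408 FPKM at 6 h, 158 and 221 FPKM at 12 h and 159 and 218 FPKM at 24 h, and its 24 h minus 6 h difference did not pass (-0.69 ± 0.28, limma adjusted p = 0.203).

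**Figure D5:**
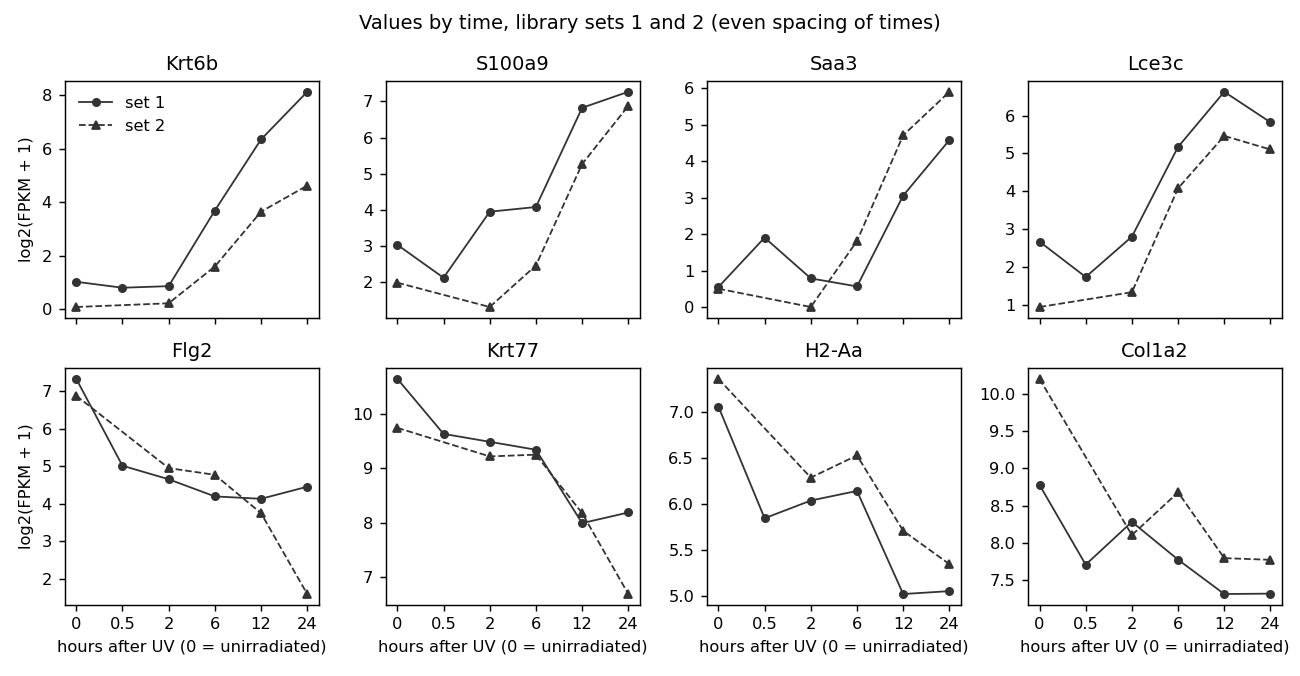
Level on the log2(FPKM + 1) scale (y axis) by hours after UV (x axis, evenly spaced, 0 is unirradiated) for 8 genes in library set 1 (circles, solid line) and set 2 (triangles, dashed line), 1 library per point. Krt6b, S100a9 and Saa3 are highest at 24 h in both sets, Lce3c is highest at 12 h, and the lower 4 genes are highest at 0 h.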

How the data were processed

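The deposited table holds FPKM values of 10980 genes in 14 libraries of total RNA. Reads were aligned to mm10 with TopHat2 2.1.0 and FPKM were computed by the authors with Cufflinks 2.2.1, per the submitters' processing notes. UV dose, strandedness, rRNA removal and annotation: not given in the sources used here. Libraries fall into 3 sets by number format and header style: set 1 (6 libraries), set 2 (5) and set 3 (3, without T0). For sets 2 and 3 the FPKM values of all 10951 genes above 0 were whole multiples of a per-read unit, so their reads could be computed. The libraries of set 2 held 12327907 to 13069488 such reads, and those of set 3 14738980 to 15549615. Reads outside the listed genes are not counted, and the reads of set 1 are unknown. Whether the 3 sets were quantified in the same way was not tested. Listed FPKM summed to 661239 and 449789 at 24 h, against 617748 and 441072 at T0.

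Log2(FPKM + 1) values of all 14 libraries were fitted with limma 3.58.1 in R 4.3.3 (trended prior, group means plus library set, 6 residual degrees of freedom), and p-values were adjusted (Benjamini-Hochberg) across 10980 genes, with calls under 0.05. The set was taken to pair libraries across times. After subtraction of time means, all 28 pairs of 1 set correlated at 0.411 to 0.895. For 53 pairs of different sets the range was -0.859 to 0.492. Where a time has only 2 libraries, this subtraction makes their deviations mirror images. The values between sets are then in large part those within sets with the sign turned, and are no separate support. The fit was also run on simulated data. These were built from the same group and set terms, so they cannot check the choice of the set term. Alternatives were a fit without the set, a pseudocount of 0.1, a filter at mean FPKM 5, quantile and median-of-ratios scaling, sets 1 and 2 alone, the 4 libraries alone, a skeletal muscle covariate and leaving out each library. Genes were named if among the 15 largest called rises or falls or a called list member, or, in lists with under 2 calls, the 2 members of highest mean FPKM. Ccl2, Cxcl1, Epcam, Epgn, Hrnr, Il1b, Ivl, Krt1, Krt5, Krt14, Krt17, Sprr1a and Tgm1 fall outside this rule and were chosen after their values were seen. A gene that the rule names is not reported here. The comparison, the gene lists and the tests were chosen with earlier results of these data known. Of 10980 symbols, 10599 matched 1 RefSeq gene.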

Additional observations from a re-analysis of the deposited data

Results flagged for a closer look

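Each of the following differed between time points after UV: the 24 h minus 6 h difference passed the limma test across all genes (adjusted p under 0.05), on the log2(FPKM + 1) scale. These differences share the 24 h libraries with those against T0. The numbers of calls at 24 h against 6 h fell to 2 genes with the skeletal muscle covariate, to 15 without 6 h of set 2 and to 16 without 24 h of set 2, so these values are descriptive. The part of muscle content in them was not tested gene by gene.

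Among wound keratins and alarm genes, the 24 h minus 6 h difference was 3.40 for Krt6b, 1.78 for Krt6a, 3.93 for Saa3, 3.80 for S100a9, 2.97 for S100a8, 3.11 for Lcn2 and 2.74 for Slpi. Among injury-induced envelope genes it was 3.15 for Sprr2f, 2.62 for Sprr2d, 2.25 for Sprr2i, 2.46 for Sprr2e and 3.18 for Lce3b. Other rises were Timp1 at 1.86, Isg15 at 1.35 and Creld2 at 0.98.

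Among genes of the regular envelope and the spinous layer the difference was -2.48 for Lce1m, -2.08 for Lor, -1.81 for Casp14, -0.92 for Klk5, -2.07 for Krt77 and -1.51 for Krt10, and for histidase (Hal) it was -1.81. Class II genes were at -0.95 for Cd74, -1.10 for H2-Aa, -0.89 for H2-Ab1 and -0.96 for H2-Eb1. The remaining falls were Ccl27a at -1.76, Gsta2 at -1.15 and Acsbg1 at -1.04.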

How the results depend on the processing

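Against T0, the 36 rises became 0 without the replicate block (the library set), 57 with quantile normalization and 10 with the 4 libraries alone, and the 205 falls became 0 without the block and 22 with the 4 libraries alone. Leaving out 1 of the 4 libraries gave 14 to 73 rises and 39 to 173 falls. Counts stayed within 1.5 times under the pseudocount of 0.1 (34 and 186), the low-value filter (24 and 145), median-of-ratios scaling (35 and 199), sets 1 and 2 alone (52 and 254) and the muscle covariate (25 and 172), as did falls under quantile normalization (228). Against 12 h, leaving out a 24 h or 12 h library gave 0 to 17 calls. Against 6 h, the 342 calls became 0 without the block and 2 with the muscle covariate, and leaving out a 24 h or 6 h library gave 15 to 611. Without the block limma had 49 genes at an unadjusted p under 0.05 against 12 h. The median residual SD was 0.155 with the block and 0.335 without it, and the cause was not tested beyond that.

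No called named gene reversed, which a call makes likely beforehand, so this is no separate support. Of 81 called named genes, 77 kept their call at the lower pseudocount, 79 under median-of-ratios and 77 under quantile scaling. It was 75 in sets 1 and 2 alone, 69 with the muscle covariate and 0 without the block. Each of the 4 fits without a 24 h or T0 library kept fewer of these calls, apart from the 0 without the block. Among the named genes without a call that are reported here, some changed sign, and the cause was not tested. With quantile normalization they were Ddb1 (-0.0681), Rplp0 (-0.14), Timp3 (-0.0586), Krt71 (-0.16) and Krt25 (-0.23). With the muscle covariate they were Ube2c (0.000747), Rn45s (-0.15), Timp3 (-0.0479), Fabp4 (-0.0274), Acta1 (0.0699), Tnnc2 (0.17) and Pmel (0.11), and with median-of-ratios scaling Pmel (0.0042). With 1 of the 4 libraries left out the ranges were -0.17 to 0.0338 for Perp, -0.0339 to 0.0367 for Ddb1, -0.0329 to 0.83 for Junb, -0.56 to 0.47 for Zfp36, -0.26 to 0.24 for Ube2c, -0.0573 to 0.0694 for Rplp0, -0.0341 to 0.23 for Rn45s, -0.37 to 0.24 for Mt4, -0.95 to 0.14 for Nfkbia, -0.099 to 0.71 for Ifi27l2a, -0.96 to 0.18 for Lyz2, -0.12 to 0.14 for Timp3, -0.0435 to 0.22 for Fabp4, -0.51 to 0.10 for Acta1, -0.22 to 0.0833 for Tnnc2, -0.11 to 0.11 for Pmel, -0.25 to 0.16 for Ly6c1 and -0.11 to 0.33 for Plvap.

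The fits without a 24 h or T0 library leave 1 library in that group, which is assumed to vary like the other groups. With 2 libraries a group, a difference that did not pass may have been too small to detect.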

Other observations

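The following 4 enzyme genes fell, and were picked from the falls after their values were seen. Of the 25 listed cholesterol and fatty acid synthesis genes, limma called 0 (1 at an unadjusted p under 0.05). Adh7, an alcohol dehydrogenase that also oxidises retinol, was at 6.32 and 4.95 FPKM at 24 h, against 24.2 and 16.1 FPKM at T0 (-1.65 ± 0.17, limma adjusted p = 0.00125). Aldh3a1, an aldehyde dehydrogenase, was at 4.03 and 5.92 FPKM at 24 h, against 29.6 and 19.8 FPKM at T0 (-2.10 ± 0.24, limma adjusted p = 0.00209). Alox12e, an epidermal lipoxygenase, was at 24.2 and 15.03 FPKM at 24 h, against 125 and 90.8 FPKM at T0 (-2.42 ± 0.29, limma adjusted p = 0.00319). In all 3 the groups do not overlap. Cyp27a1, a mitochondrial sterol hydroxylase, was at 2.09 and 2.09 FPKM at 24 h, against 8.63 and 8.96 FPKM at T0 (-1.66 ± 0.14, limma adjusted p = 0.00043). Its values were nearly equal between sets in each group. These 4 genes kept their call whichever of the 4 libraries was left out.

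Among 5 listed Serpina3 genes, a family of serine protease inhibitors with near-identical copies in the mouse, 2 fell. Serpina3b was at 10.4 and 15.5 FPKM at 24 h, against 69.7 and 70.5 FPKM at T0 (-2.37 ± 0.31, limma adjusted p = 0.00526). Serpina3h, which kept its call in all 4 fits that left out a 24 h or T0 library, fell by 2.15.

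Smaller rises included immune genes that were on no list or not described above. Il4ra, the receptor chain shared by interleukins 4 and 13, was at 15.9 and 25.4 FPKM at 24 h, against 8.26 and 8.89 FPKM at T0 (1.14 ± 0.24, limma adjusted p = 0.0369). Pglyrp3, a peptidoglycan recognition protein, was at 6.92 and 7.47 FPKM at 24 h, against 2.14 and 3.05 FPKM at T0 (1.20 ± 0.23, limma adjusted p = 0.0251). Tnfrsf18, which encodes the costimulatory receptor GITR of T cells, was at 20.8 and 25.9 FPKM at 24 h, against 13.2 and 12.1 FPKM at T0 (0.83 ± 0.16, limma adjusted p = 0.0239). Within each set the 24 h level of these 3 genes, chosen after their values were seen, was the higher one. With 1 of the 4 libraries at 24 h or T0 left out, Il4ra and Tnfrsf18 were called only without 24 h of set 1 (1.55 and 1.09) and Pglyrp3 in no fit (1.03 to 1.37).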
